A study of Drosophila melanogaster with 15 samples.

Results

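Antennal transcripts of *Or67dGAL4* males were compared directly with those of *Or47b1* males, so that the question was what differs between the loss of one pheromone receptor and the loss of the other. The 3 *Or67dGAL4* libraries and the 3 *Or47b1* libraries were 6 of the 15 libraries of the series and were taken by their genotype labels. Of the 17490 genes in the count tables, 10358 passed the filter on low counts and were tested. *Or67dGAL4* males were homozygous for the *Or67dGAL4* allele and for UAS-mCD8GFP. *Or47b1* males were homozygous for the *Or47b1* allele and carried Or47b-GAL4 and UAS-mCD8GFP, also on both homologs. Both lines therefore held a GAL4 source and a membrane GFP transgene, each was given as 1 genotype with no second line, and both were group-housed, aged 7 days and sampled as 180 antennae from 90 pooled males per library. Group-housed wild types, *w1118* GH, of the same age are given beside them, and the remaining libraries, *w1118* SH (single-housed wild types) and *fruLexA/fru4-40* (males lacking male-specific Fruitless), entered only the shared estimate of the spread.

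Or67d and Or47b are odorant receptors of trichoid sensilla on the third antennal segment, and each is expressed in its own class of olfactory receptor neurons (ORNs). Or67d responds to the male pheromone cis-vaccenyl acetate and restrains courtship between males, while Or47b responds to fatty acid ligands of the cuticle and promotes courtship and copulation. Or67d neurons sit alone in their sensillum, whereas Or47b neurons share theirs with neurons that express Or65a, Or65b and Or65c and with neurons that express Or88a. Both classes express *fruitless* (*fru*), and the odorant-binding protein Lush and the membrane protein Snmp1 assist pheromone detection around them.

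Counts on genes summed to between 8570425 and 10824559 in the *Or67dGAL4* libraries and to between 8784260 and 11380499 in the *Or47b1* libraries. Levels are given as RPKM, reads per kilobase of exon scaled to library size after TMM normalization, in the order of replicates 1, 2 and 3, and every fold change is *Or67dGAL4* over *Or47b1* on a log2 scale. A gene was said to rise or fall where the adjusted p of edgeR's quasi-likelihood test was under 0.05. Across genes, which are not independent replicates, Pearson's r of log2 CPM was 0.980 to 0.987 within *Or67dGAL4*, 0.980 to 0.988 within *Or47b1* and 0.947 to 0.958 between the 2 mutants. The first principal component of the 6 libraries separated the genotypes with 63.6% of the variance. The methods call the libraries biological replicates. Since each receptor loss was studied in 1 line with its own transgenes, the loss of a receptor and the background of its line cannot be told apart in any result that follows. In whole antennae, RNA levels alone cannot tell fewer cells of a type from less RNA per cell either. The paper counted Or47b and Or67d neurons at the same age and found similar numbers in each receptor's mutant and its control. It gave no such counts for other cell types.

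Each mutant had lost most of the transcript of its own receptor and kept that of the other. *Or67d* (chr3L:10273204-10274624 in dm6) had 0.927, 0.0802 and 0.801 RPKM in *Or67dGAL4* antennae, against 72.7, 80.9 and 58.9 RPKM in *Or47b1* antennae and 76.6, 75.4 and 71.6 RPKM in *w1118* GH antennae. The residual signal was 10, 1 and 8 counts in the *Or67dGAL4* libraries, and the difference between the mutants was large (log2 fold change -6.92 ± 0.31 (SE), adjusted p = 6.4e-09). *Or47b* (chr2R:11319710-11321312 in dm6) had 133, 115 and 106 RPKM in *Or67dGAL4*, against 0.859, 0.736 and 0.555 RPKM in *Or47b1* and 129, 133 and 121 RPKM in *w1118* GH (log2 fold change 7.33 ± 0.15 (SE), adjusted p = 7.11e-12). The genotype labels thus matched the receptor transcripts in all 6 libraries. *white* (*w*), the eye pigment transporter gene that fly transgenes commonly carry as a marker, had 235, 211 and 179 RPKM in *Or67dGAL4*, against 54.3, 48.8 and 43.9 RPKM in *Or47b1*, and only 1 count in 1 of the 3 *w1118* GH libraries (log2 fold change 2.09 ± 0.14 (SE), adjusted p = 1.05e-06). The *w* transcripts therefore also differed between the mutant lines, which carry different transgenes.

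Differences were not limited to the mutated receptors. *Or67dGAL4* antennae had less of the receptor transcripts *Or65b* and *Or13a*, of the oxidase transcript *Cyp6a20* and of the metallothionein transcript *MtnB* than *Or47b1* antennae. They had more *Or85b*, more of the channel transcript *ppk25*, and more *amd* and *takeout*, and in each of these 8 genes the libraries of the 2 mutants did not overlap. Of the 10358 genes tested, 2778 (26.8%) differed between the mutants, with 1347 (13%) higher and 1431 (13.8%) lower in *Or67dGAL4*. Most differences were small. The median absolute log2 fold change of the called genes was 0.52, and 783 of the called genes (7.56% of those tested) differed at least 2-fold, 396 higher and 387 lower. At least 8-fold differences were found in 104 genes that were higher and 86 that were lower. The libraries of the 2 genotypes did not overlap in 4265 of the tested genes (41.2%) and in 2627 of the 2778 called. Leaving out 1 library at a time gave between 1968 and 3098 called genes, and 1552 genes kept their call in all 6 of those fits, 780 higher and 772 lower. The number lower fell to 928 without *Or67dGAL4* replicate 3.

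**Figure D1:**
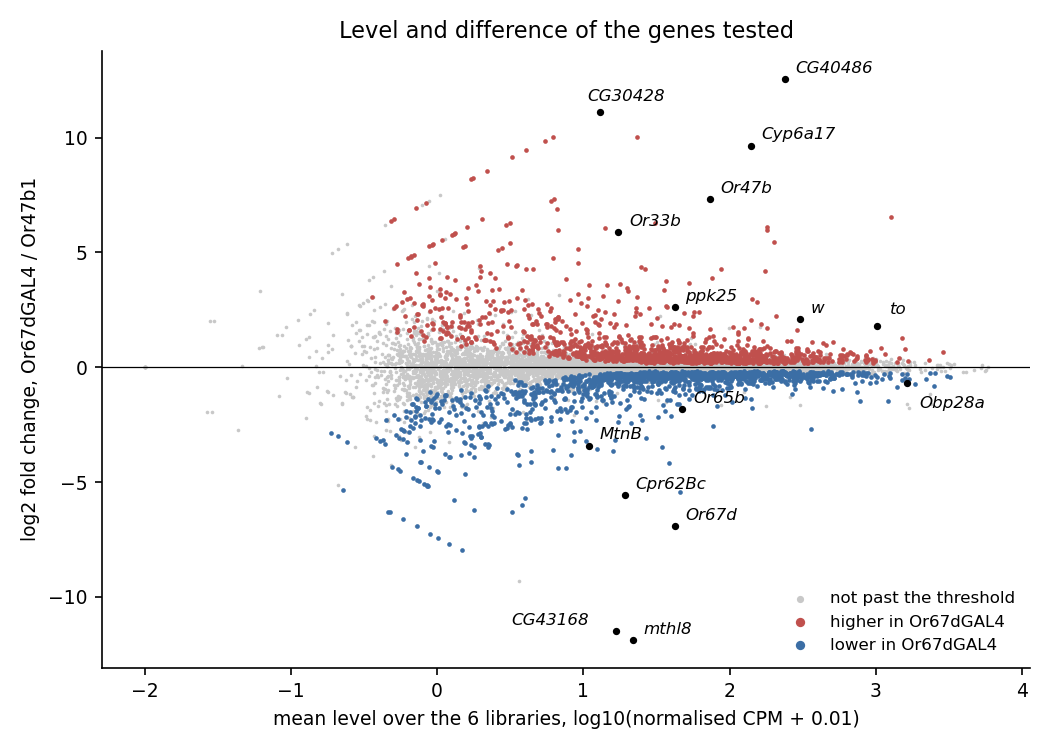
Each dot is 1 of 10358 tested genes, with its mean normalised CPM over the 6 libraries on a log10 axis and its log2 fold change, *Or67dGAL4* over *Or47b1*. Red dots (1347) were higher and blue dots (1431) lower in *Or67dGAL4* at an adjusted p under 0.05, with some named genes in black and the mutated receptors at 7.33 for *Or47b* and -6.92 for *Or67d*.

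Among the 6 receptors of the pheromone-sensing trichoid neurons, 3 fell and 1 rose beside the mutated pair (100% called, beside 26.8% of all genes). The calls of the mutated pair were given by the genotypes. All 6 calls but that of *Or88a* held whichever library was left out. The 3 receptors of the *Or65* group were lower in *Or67dGAL4*. *Or65b* had 14.7, 21.1 and 15.5 RPKM in *Or67dGAL4*, against 59.1, 65.1 and 58.04 RPKM in *Or47b1* and 59.98, 59.5 and 57.2 RPKM in *w1118* GH (log2 fold change -1.82 ± 0.12 (SE), adjusted p = 1.92e-07). The *Or67dGAL4* libraries lay well below the other 6, and the *Or47b1* and *w1118* GH libraries overlapped. *Or65a* had 35.98, 37.6 and 35.7 RPKM in *Or67dGAL4* and 49.6, 56.5 and 48.7 RPKM in *Or47b1* (log2 fold change -0.50 ± 0.09 (SE), adjusted p = 0.00122). *Or65c*, the least abundant of the group, had 7.51, 7.04 and 7.26 RPKM in *Or67dGAL4* and 12.2, 12.1 and 10.9 RPKM in *Or47b1* (log2 fold change -0.69 ± 0.15 (SE), adjusted p = 0.00492). *Or65a*, *Or65b* and *Or65c* share a class of neuron, but their fold changes were unequal. *Or88a*, whose neurons respond to male odors, had 3.98, 5.24 and 3.42 RPKM in *Or67dGAL4* and 2.57, 2.86 and 2.85 RPKM in *Or47b1* (log2 fold change 0.61 ± 0.21 (SE), adjusted p = 0.0443). Its call was lost by DESeq2 (adjusted p = 0.0674) and without *Or67dGAL4* replicates 1 and 2 and *Or47b1* replicates 1, 2 and 3 in turn (adjusted p = 0.0541 to 0.2), and its exons overlap an antisense gene that unstranded counts do not separate.

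**Figure D2:**
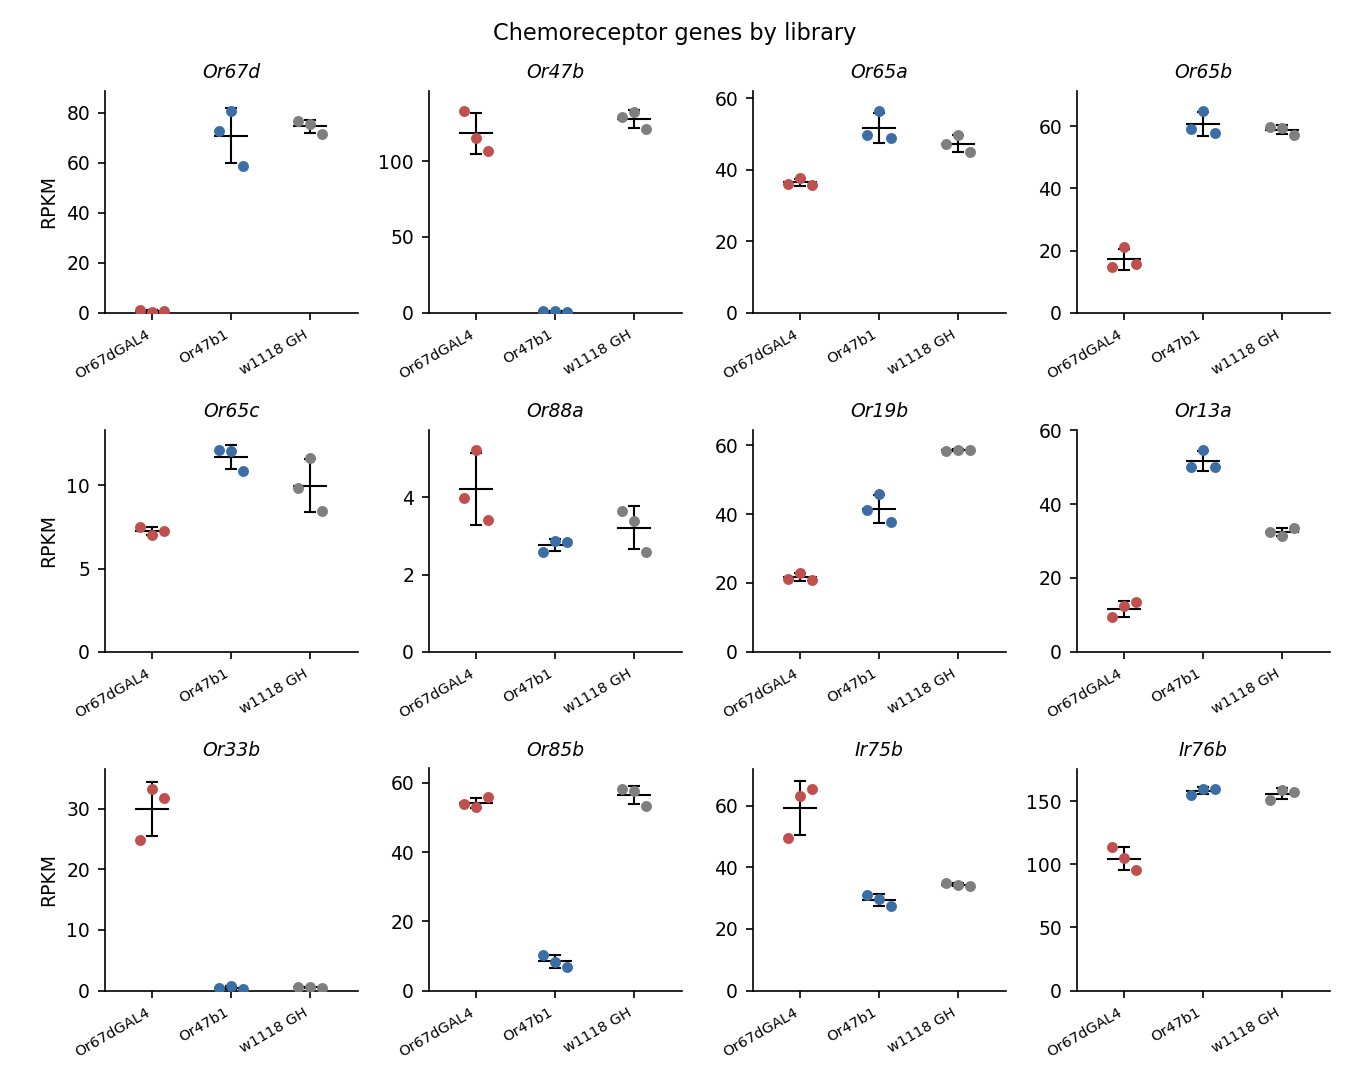
RPKM of 12 chemoreceptor genes in each library (dots), with the mean and SD of each group of 3, for *Or67dGAL4*, *Or47b1* and *w1118* GH. The *Or65b* and *Or13a* dots of *Or67dGAL4* lie below those of both other groups, the *Or33b* dots lie above them, and the *Or85b* dots are low only in *Or47b1*.

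Receptors of the other trichoid and intermediate sensilla were lower where they were called. Of the 6 in that list, 4 fell and none rose (66.7% called, beside 26.8% of all genes). The median log2 fold change of the list was -0.38, beside -0.004 over all genes tested. *Or19b* had 20.97, 22.9 and 20.8 RPKM in *Or67dGAL4*, 41.1, 45.7 and 37.7 RPKM in *Or47b1* and 58.4, 58.7 and 58.7 RPKM in *w1118* GH (log2 fold change -0.94 ± 0.10 (SE), adjusted p = 3.07e-05), so the 3 groups formed 3 separate ranges. *Or2a* had 7.40, 5.96 and 5.11 RPKM in *Or67dGAL4* and 10.7, 10.6 and 12.2 RPKM in *Or47b1* (log2 fold change -0.86 ± 0.14 (SE), adjusted p = 0.000552). These calls held whichever library was left out, whereas those of *Or23a* and *Or43a* did not, and the number lower was 2 without *Or67dGAL4* replicate 2 or 3 or *Or47b1* replicate 2 or 3.

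Receptors of basiconic sensilla, which detect food odors, moved in both directions. Of 32 symbols listed, 31 matched the tables and 25 were tested. The other 6 were below the filter. In all, 10 rose and 6 fell (64% called, beside 26.8% of all genes), 8 and 4 of them in all 6 fits with 1 library left out. *Or33b* (chr2L:11936181-11937501 in dm6) had 24.9, 33.3 and 31.7 RPKM in *Or67dGAL4*, against 0.389, 0.800 and 0.302 RPKM in *Or47b1* and 0.569, 0.559 and 0.391 RPKM in *w1118* GH (log2 fold change 5.88 ± 0.35 (SE), adjusted p = 7.94e-08). It was thus abundant in 1 of the 3 genotypes only, with no overlap. *Or85b*, a receptor for food odors, showed the other pattern, with 53.9, 52.9 and 55.9 RPKM in *Or67dGAL4*, 10.4, 8.30 and 6.75 RPKM in *Or47b1* and 58.3, 57.8 and 53.4 RPKM in *w1118* GH (log2 fold change 2.67 ± 0.14 (SE), adjusted p = 2.07e-08). Smaller increases were found for *Or67b* (21.6 ± 2.43 RPKM in *Or67dGAL4* and 9.29 ± 1.19 RPKM in *Or47b1*, mean ± SD, n = 3 each, log2 fold change 1.22, adjusted p = 1.76e-05) and *Or69a* (15.2 ± 2.09 RPKM in *Or67dGAL4* and 6.97 ± 0.688 RPKM in *Or47b1*, log2 fold change 1.12, adjusted p = 2.39e-05). Exons of *Or67b* overlap *CG3335* and *Cyp40*. Among the receptors that fell, *Or59b* had 119.7, 109 and 108 RPKM in *Or67dGAL4* and 164, 165 and 148 RPKM in *Or47b1* (log2 fold change -0.50 ± 0.07 (SE), adjusted p = 0.000221). *Gr63a*, a subunit of the carbon dioxide receptor, had 44.3, 39.6 and 36.3 RPKM in *Or67dGAL4* and 56.1, 58.8 and 52.5 RPKM in *Or47b1* (log2 fold change -0.48 ± 0.09 (SE), adjusted p = 0.00165). The lower levels of *Or59b* and *Gr63a* in *Or67dGAL4* were modest and free of overlap. *Or13a*, which was in none of the lists and was picked after its values were seen, had 9.28, 12.2 and 13.5 RPKM in *Or67dGAL4*, 49.9, 54.8 and 50.1 RPKM in *Or47b1* and 32.6, 31.4 and 33.5 RPKM in *w1118* GH (log2 fold change -2.14 ± 0.14 (SE), adjusted p = 2.06e-07).

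The 4 co-receptors, which pair with tuning receptors to form odor-gated channels, all fell in *Or67dGAL4*, by small amounts (100% called, beside 26.8% of all genes). Of these calls, 2 held in all 6 fits with 1 library left out. *Orco*, the partner of the Or proteins, had 1288, 1186 and 1097 RPKM in *Or67dGAL4* and 1429, 1526 and 1344 RPKM in *Or47b1* (log2 fold change -0.27 ± 0.08 (SE), adjusted p = 0.0205). That call was lost without *Or67dGAL4* replicates 2 and 3 and *Or47b1* replicates 1 and 2 in turn (adjusted p = 0.0528 to 0.135), and the call of *Ir8a* (log2 fold change -0.29, adjusted p = 0.0171) was lost in the same fits (adjusted p = 0.0563 to 0.114). *Ir25a* had 88.6, 79.9 and 75.98 RPKM in *Or67dGAL4*, 109, 116 and 102 RPKM in *Or47b1* and 140.4, 141 and 136 RPKM in *w1118* GH (log2 fold change -0.42 ± 0.07 (SE), adjusted p = 0.000479). *Ir76b* had 114, 105 and 95.1 RPKM in *Or67dGAL4* and 155, 159.8 and 159.9 RPKM in *Or47b1* (log2 fold change -0.60 ± 0.08 (SE), adjusted p = 0.00022). For *Ir25a* and *Ir76b* every *Or67dGAL4* library was below every *Or47b1* library, and the calls held whichever library was left out. Tuning receptors, 14 of the ionotropic family and the gustatory receptor *Gr28b*, which senses warmth, did not follow them: of 15 tested, 7 rose and 2 fell (60% called, beside 26.8% of all genes, median log2 fold change 0.24). *Ir75b*, an acid receptor, had 49.4, 63.05 and 65.6 RPKM in *Or67dGAL4*, 31.1, 29.7 and 27.4 RPKM in *Or47b1* and 35.04, 34.2 and 33.96 RPKM in *w1118* GH (log2 fold change 1.01 ± 0.10 (SE), adjusted p = 6.79e-06). Its neighbour *Ir75a* had 102, 103 and 96.03 RPKM in *Or67dGAL4* and 59.3, 63.01 and 53.4 RPKM in *Or47b1* (log2 fold change 0.78 ± 0.08 (SE), adjusted p = 1.16e-05). *Ir84a*, which promotes male courtship in response to food odors and is expressed in *fru* neurons, had 25.7, 22.4 and 20.9 RPKM in *Or67dGAL4*, 14.6, 13.99 and 12.9 RPKM in *Or47b1* and 20.1, 21.3 and 17.3 RPKM in *w1118* GH (log2 fold change 0.73 ± 0.15 (SE), adjusted p = 0.00254). *Ir31a* had means of 29.1 ± 4.80 RPKM in *Or67dGAL4* and 15.7 ± 1.03 RPKM in *Or47b1* (SD, n = 3 each, log2 fold change 0.89, adjusted p = 0.000324). These 4 receptors were thus higher in *Or67dGAL4* than in *Or47b1* with no overlap. Both decreases, of *Gr28b* and *Ir40a*, were less stable: the number lower was 0 without *Or67dGAL4* replicate 3 or *Or47b1* replicate 1 or 2 and 1 without *Or67dGAL4* replicate 2.

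Odorant-binding proteins (Obps), which support cells secrete into the lymph around the ORN dendrites, divided evenly. Of 50 listed, 30 were tested and 20 were below the filter. In all, 9 rose and 9 fell (60% called, beside 26.8% of all genes), 6 in each direction in all 6 fits with 1 library left out. *Obp83cd*, *Obp83ef* and *Obp83g*, neighbours on 3R, were near the detection limit in *Or47b1* and higher in *Or67dGAL4*. *Obp83ef* had 30.5, 34.9 and 26.1 RPKM in *Or67dGAL4*, against 0.492, 0.338 and 0.509 RPKM in *Or47b1* and 0.144, 0.404 and 0.396 RPKM in *w1118* GH (log2 fold change 6.06 ± 0.28 (SE), adjusted p = 7.35e-09). *Obp83g* had 15.2 ± 4.48 RPKM in *Or67dGAL4* and 0.751 ± 0.169 RPKM in *Or47b1* (SD, n = 3 each, log2 fold change 4.29, adjusted p = 4.1e-05). *Obp83cd*, whose exons overlap those of *Obp83ef*, had 7.52 ± 1.40 RPKM in *Or67dGAL4* and 0.339 ± 0.0434 RPKM in *Or47b1* (log2 fold change 4.43, adjusted p = 3.53e-05). *Obp84a* had 80.3, 80.2 and 65.5 RPKM in *Or67dGAL4*, 23.01, 23.9 and 20.8 RPKM in *Or47b1* and 66.2, 66.5 and 63.1 RPKM in *w1118* GH (log2 fold change 1.74 ± 0.09 (SE), adjusted p = 1.99e-08), so here the low group was *Or47b1*. Exons of *Obp84a* and *Obp59a* overlap other genes. Among abundant Obps, *Obp28a* had 2536, 1935 and 2020.3 RPKM in *Or67dGAL4* and 3602, 3498 and 3353 RPKM in *Or47b1* (log2 fold change -0.69 ± 0.09 (SE), adjusted p = 0.000169). Every *Or67dGAL4* library was below every *Or47b1* library for *Obp28a*. *Obp59a* had 731, 676 and 657 RPKM in *Or67dGAL4*, 1129, 1142 and 1078 RPKM in *Or47b1* and 741, 739 and 769 RPKM in *w1118* GH (log2 fold change -0.70 ± 0.07 (SE), adjusted p = 6.89e-06). *Obp57c* (log2 fold change -0.68, adjusted p = 0.000411) and *Obp57a* (log2 fold change -0.96, adjusted p = 0.00333) fell, whereas *Obp57b*, from the same cluster, rose (log2 fold change 0.82, adjusted p = 0.000244).

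The pheromone-binding protein gene *lush* and the membrane protein gene *Snmp1*, both of pheromone detection, differed little. *lush* had 1758, 1406 and 1462 RPKM in *Or67dGAL4* and 1306, 1297 and 1311 RPKM in *Or47b1* (log2 fold change 0.24 ± 0.08 (SE), adjusted p = 0.0337). Its *Or67dGAL4* libraries were above those of *Or47b1*, but the call was lost without *Or67dGAL4* replicate 1 and *Or47b1* replicates 1, 2 and 3 in turn (adjusted p = 0.083 to 0.0866), and without *Or67dGAL4* replicate 1 the log2 fold change was 0.14. *Snmp1* had 935, 860.1 and 769 RPKM in *Or67dGAL4* and 907, 941 and 869 RPKM in *Or47b1*, and did not pass the test (log2 fold change -0.08, adjusted p = 0.457). The level of *Snmp1* overlapped between the mutants. Of the 12 tested genes of the Snmp and odor-clearance list, none rose (1 rose without *Or67dGAL4* replicate 3) and 3 fell (25% called, beside 26.8% of all genes). These were the odor-degrading esterase *Est-6* (960.4, 992 and 1010.3 RPKM in *Or67dGAL4* and 1361, 1446 and 1382 RPKM in *Or47b1*, log2 fold change -0.50 ± 0.10 (SE), adjusted p = 0.00295), the antennal dehydrogenase *Antdh* (log2 fold change -0.56, adjusted p = 0.00225) and the glycosyltransferase *Ugt35B1* (log2 fold change -0.44, adjusted p = 0.0052). All 3 kept their call whichever library was left out.

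Pickpocket (ppk) channels are sodium channel subunits of chemosensory and mechanosensory neurons, and some serve contact pheromone detection. Of 30 ppk genes, 15 were tested, of which 6 rose and 1 fell (46.7% called, beside 26.8% of all genes, median log2 fold change 0.77, which is the same with genes absent from *Or47b1* set at their lower bounds). *ppk25* (chr2R:6950385-6952158 in dm6), which amplifies pheromone responses of Or47b neurons, had 55.8, 52.9 and 50.4 RPKM in *Or67dGAL4*, against 8.79, 9.60 and 7.49 RPKM in *Or47b1* and 4.43, 3.81 and 3.60 RPKM in *w1118* GH (log2 fold change 2.62 ± 0.13 (SE), adjusted p = 1.34e-08). The 3 genotypes formed 3 separate ranges, and *ppk25* was highest in *Or67dGAL4*. Counts of *ppk9* were 31, 33 and 34 in *Or67dGAL4* and 0 in every *Or47b1* library, at least 10.2-fold higher against a floor of 3 counts per library. *ppk19* likewise had 35, 32 and 28 counts in *Or67dGAL4* and 0 in every *Or47b1* library (at least 9.82-fold higher), and 194, 106 and 125 counts in *w1118* GH. Exons of *ppk19* overlap *Bub3*. *ppk7* (log2 fold change 1.55, adjusted p = 0.000622) and the scarce *ppk27* (31 against 3 counts in all, a ratio of 10.9, with a 95% exact counting interval of 3.41 to 55.8) also rose, and 5 of the 6 increases held in all 6 fits with 1 library left out. The only decrease, of *ppk13*, was not stable, with the number lower at 0 without *Or67dGAL4* replicate 1 or 3 or *Or47b1* replicate 1 or 2 or 3. *ppk23* and *ppk29*, the other subunits known from contact pheromone detection, had means of 0.469 ± 0.294 and 2.37 ± 0.343 RPKM in *Or67dGAL4* and 0.520 ± 0.821 and 2.87 ± 0.541 RPKM in *Or47b1* (SD, n = 3 each). Neither passed the test (adjusted p = 0.957 for *ppk23* and 0.376 for *ppk29*). Both called inward rectifier potassium channels fell, *Irk1* with 1.25, 1.94 and 1.80 RPKM in *Or67dGAL4* and 4.09, 4.41 and 4.22 RPKM in *Or47b1* (log2 fold change -1.35 ± 0.19 (SE), adjusted p = 0.000238) and *Irk3* with a log2 fold change of -0.86, adjusted p = 0.000892.

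CheA and CheB genes encode small secreted proteins of chemosensory organs, some of them tied to contact pheromones. Of 19 tested, 3 rose and 1 fell (21.1% called, beside 26.8% of all genes). *CheB42b* had 81.7, 83.6 and 72.3 RPKM in *Or67dGAL4*, 22.6, 25.4 and 19.7 RPKM in *Or47b1* and 4.14, 12.3 and 3.71 RPKM in *w1118* GH (log2 fold change 1.81 ± 0.25 (SE), adjusted p = 0.000214). *CheB42c*, whose exons overlap *mim*, had 12.4, 10.4 and 10.3 RPKM in *Or67dGAL4* and 1.51, 2.40 and 1.25 RPKM in *Or47b1* (log2 fold change 2.67 ± 0.53 (SE), adjusted p = 0.00261). *CheA7a* had 61, 83 and 43 counts in *Or67dGAL4* and 0 in each *Or47b1* library, at least 18.9-fold higher. The 3 increases held whichever library was left out, and the single decrease, of *CheB93b*, did not, with the number lower at 0 without *Or67dGAL4* replicate 1 or 3 or *Or47b1* replicate 2. The median of the list was -1.37, below that of all genes, and *Or47b1* replicate 2 stood apart here: 5 genes of the family, among them *CheB42a*, *CheB93a* and *CheA75a*, were more than 4-fold above both other *Or47b1* libraries in it. The part of that library in the median was not tested.

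**Figure D3:**
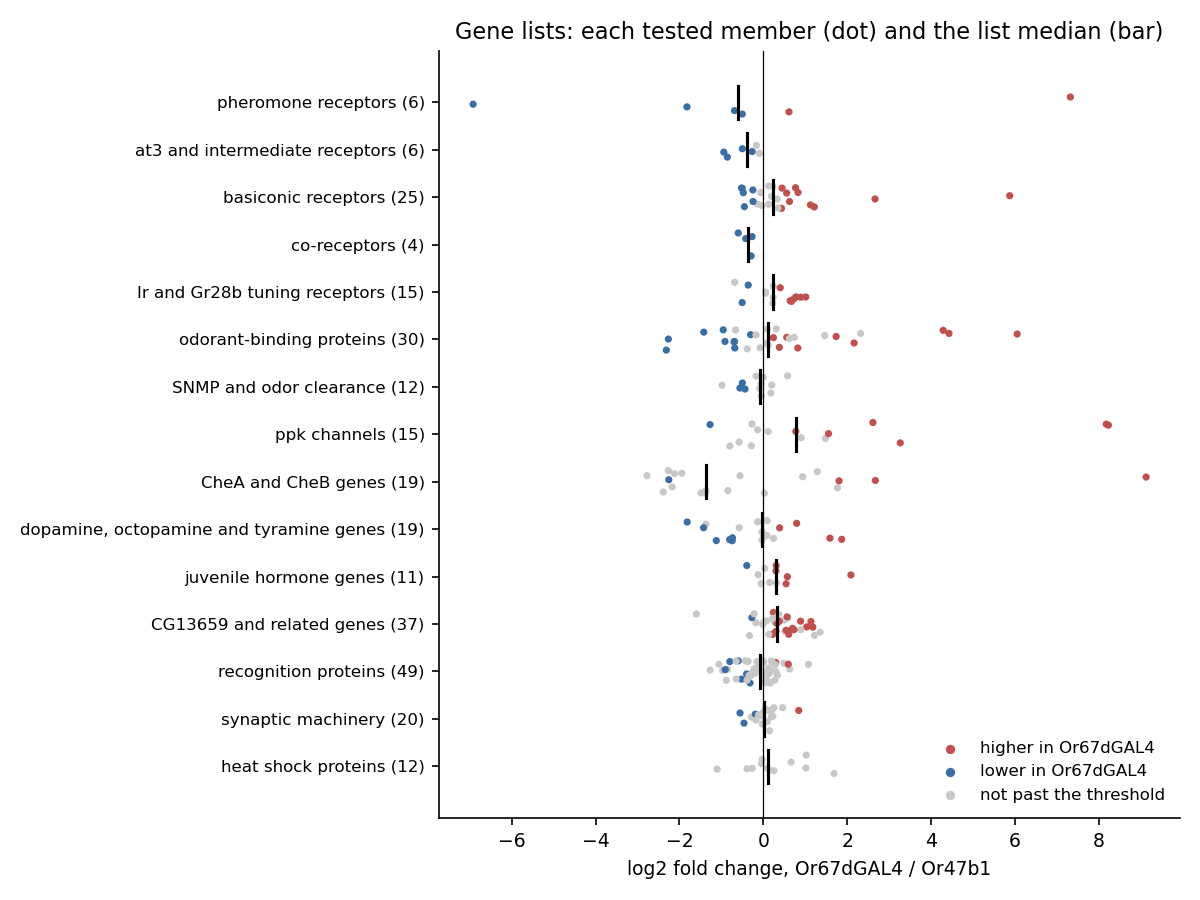
Log2 fold change, *Or67dGAL4* over *Or47b1*, of each tested member (dot) of 15 gene lists, with the number tested in parentheses and a bar at the list median. Red dots were higher and blue dots lower in *Or67dGAL4* at an adjusted p under 0.05, and all 4 co-receptors lie on the lower side of 0.

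Genes of amine signaling moved in both directions. Of 19 genes for dopamine, octopamine and tyramine, 4 rose and 6 fell (52.6% called, beside 26.8% of all genes). *Vmat*, the transporter that loads amines into vesicles, had 20.97, 21.7 and 25.2 RPKM in *Or67dGAL4* and 36.9, 39.7 and 36.9 RPKM in *Or47b1* (log2 fold change -0.74 ± 0.09 (SE), adjusted p = 3.93e-05), with exons that overlap *CG13330*. *DAT*, the dopamine transporter, had 3.05, 3.17 and 4.42 RPKM in *Or67dGAL4* and 8.75, 9.50 and 10.2 RPKM in *Or47b1* (log2 fold change -1.43 ± 0.24 (SE), adjusted p = 0.000892). The dopamine receptor genes *Dop1R2* (log2 fold change -1.12, adjusted p = 0.00104) and *Dop2R* (log2 fold change -1.82, adjusted p = 0.0101) fell at mean levels of 1.29 and 0.303 RPKM in *Or67dGAL4* and 2.81 and 1.06 RPKM in *Or47b1*. Transport and reception of dopamine were thus represented among the decreases, but not alone. The receptor genes *Oct-TyrR* (log2 fold change -0.74, adjusted p = 0.032) and *TyrR* (log2 fold change -0.80, adjusted p = 0.0391), for octopamine and tyramine, also fell. Neither of these calls held in all fits with 1 library left out. *amd*, a relative of dopa decarboxylase that acts in cuticle formation, rose, with 112, 104 and 128 RPKM in *Or67dGAL4*, 30.3, 31.2 and 32.7 RPKM in *Or47b1* and 89.5, 92.3 and 80.7 RPKM in *w1118* GH (log2 fold change 1.87 ± 0.15 (SE), adjusted p = 1.09e-06). The octopamine receptor gene *Octbeta2R* rose as well (log2 fold change 0.80, adjusted p = 0.000905). Of the 10 calls, 8 held whichever library was left out. Serotonin genes gave 3 decreases among 8 tested (37.5% called, beside 26.8% of all genes). *5-HT2B* was the one that held in all 6 fits with 1 library left out, with 18.8, 21.2 and 15.4 RPKM in *Or67dGAL4* and 27.8, 28.96 and 26.1 RPKM in *Or47b1* (log2 fold change -0.58 ± 0.10 (SE), adjusted p = 0.00122). The receptor gene *5-HT2A* was scarce in both mutants, at 0.0604, 0.122 and 0.131 RPKM in *Or67dGAL4* and 0.246, 0.150 and 0.276 RPKM in *Or47b1*, beside 22.7, 24.5 and 23.2 RPKM in *w1118* GH. The difference between the mutants (log2 fold change -1.08, adjusted p = 0.0397) was lost by DESeq2 (adjusted p = 0.0614) and without *Or67dGAL4* replicates 1, 2 and 3 and *Or47b1* replicates 1 and 3 in turn (adjusted p = 0.0645 to 0.151).

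Among 24 tested neuropeptide and receptor genes, 4 rose and 3 fell (29.2% called, beside 26.8% of all genes). *Dh44-R1*, a receptor for diuretic hormone 44, had 5.02, 5.07 and 5.04 RPKM in *Or67dGAL4* and 12.6, 11.9 and 10.5 RPKM in *Or47b1* (log2 fold change -1.21 ± 0.08 (SE), adjusted p = 3.19e-07), with *w1118* GH at 5.82, 6.18 and 5.52 RPKM, so *Or47b1* was the high genotype. *CCHa1*, a peptide gene, fell (means of 11.5 ± 1.69 RPKM in *Or67dGAL4* and 24.5 ± 1.55 RPKM in *Or47b1*, SD, n = 3 each, log2 fold change -1.08, adjusted p = 5.74e-05), while its receptor gene *CCHa1-R* rose (log2 fold change 0.87, adjusted p = 0.00288). *TkR86C*, a tachykinin-family receptor, had 11.6, 11.7 and 11.4 RPKM in *Or67dGAL4* and 6.66, 7.33 and 6.55 RPKM in *Or47b1* (log2 fold change 0.76 ± 0.07 (SE), adjusted p = 1.03e-05). *AstC-R2*, an allatostatin C receptor, rose at low levels (log2 fold change 1.34, adjusted p = 0.00424). Few transmitter genes differed: 4 of 14 acetylcholine genes rose, 1 of 9 GABA genes rose, and 1 glutamate gene of 15 rose and 1 fell. These shares were near or below the 26.8% of all genes. *Ace*, which encodes acetylcholinesterase, rose in all 6 fits with 1 library left out, with 60.9, 89.6 and 85.2 RPKM in *Or67dGAL4* and 52.9, 58.8 and 53.6 RPKM in *Or47b1* (log2 fold change 0.51 ± 0.12 (SE), adjusted p = 0.00737), as did the muscarinic receptor genes *mAChR-A* and *mAChR-B* and the GABA receptor family gene *Grd*. The glutamate genes did not keep their calls, with the number higher at 0 without *Or67dGAL4* replicate 1 or 2 or *Or47b1* replicate 1 or 3 and the number lower at 0 without *Or67dGAL4* replicate 3 or *Or47b1* replicate 2.

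Transduction, synaptic and recognition genes were called near or below the rate of all genes. Of 20 synaptic genes, 1 rose and 3 fell. *cpx*, the complexin that clamps vesicle fusion, rose, with 81.7, 144 and 142 RPKM in *Or67dGAL4* and 65.4, 75.4 and 63.4 RPKM in *Or47b1* (log2 fold change 0.84 ± 0.19 (SE), adjusted p = 0.00544). *Rab3*, a small GTPase of synaptic vesicles, fell, with 50.97, 57.3 and 55.99 RPKM in *Or67dGAL4* and 80.8, 81.03 and 79.6 RPKM in *Or47b1* (log2 fold change -0.56 ± 0.08 (SE), adjusted p = 0.000333). Among 49 cell recognition genes of the dpr, DIP, beat and side families, 2 rose and 6 fell (16.3%), all 8 in every fit with 1 library left out. *side-III* fell to 3.94 ± 0.429 RPKM in *Or67dGAL4*, against 7.42 ± 0.888 RPKM in *Or47b1* (SD, n = 3 each, log2 fold change -0.91, adjusted p = 6.43e-05), *dpr2* fell (log2 fold change -0.80, adjusted p = 0.000748) and *beat-VII* rose (log2 fold change 0.60, adjusted p = 0.00446). *DIP-alpha* had 0.449, 0.630 and 0.551 RPKM in *Or67dGAL4* and 0.839, 0.835 and 0.804 RPKM in *Or47b1* (log2 fold change -0.60 ± 0.14 (SE), adjusted p = 0.00596), both far below the 14.5, 14.99 and 17.6 RPKM of *w1118* GH. In olfactory transduction, 3 of 24 genes rose and 4 fell, with *Itpr*, the calcium channel gated by inositol trisphosphate, at 26.7 ± 0.487 RPKM in *Or67dGAL4* and 38.5 ± 0.433 RPKM in *Or47b1* (SD, n = 3 each, log2 fold change -0.53, adjusted p = 0.00158). *Or67dGAL4* replicate 1 stood apart in these lists. Without it 6 synaptic, 7 recognition and 8 transduction genes rose, in place of 1, 2 and 3, and without *Or67dGAL4* replicate 2 or *Or47b1* replicate 3 no transduction gene rose. Without *Or67dGAL4* replicate 2, 5 synaptic genes fell in place of 3. Of 13 neuronal transcription factor genes none rose and 2 fell, of which *unpg* held in all 6 fits (log2 fold change -0.48, adjusted p = 0.00651) and *pdm3* was lost without *Or47b1* replicate 2 (adjusted p = 0.058), and 2 rose without *Or67dGAL4* replicate 1.

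Total *fru* transcript gave no call between the mutants, with 3.87, 4.97 and 4.79 RPKM in *Or67dGAL4* and 3.81, 4.94 and 4.27 RPKM in *Or47b1* (log2 fold change 0.07 ± 0.13 (SE), adjusted p = 0.749). Within the sex determination list of 7, *dsx* alone was called (14.3%, beside 26.8% of all genes). It had 3.24, 4.78 and 4.79 RPKM in *Or67dGAL4*, 2.96, 3.26 and 3.26 RPKM in *Or47b1* and 1.88, 2.56 and 2.27 RPKM in *w1118* GH (log2 fold change 0.44 ± 0.15 (SE), adjusted p = 0.0449). The *Or67dGAL4* and *Or47b1* ranges of *dsx* overlapped, and the call was lost without *Or67dGAL4* replicates 2 and 3 and *Or47b1* replicates 1, 2 and 3 in turn (adjusted p = 0.0809 to 0.165). Of 11 juvenile hormone genes, 5 rose and 1, *jhamt*, fell (54.5% called, beside 26.8% of all genes). The number higher was 2 without *Or67dGAL4* replicate 2 or *Or47b1* replicate 2 or 3 and 3 without *Or67dGAL4* replicate 3 or *Or47b1* replicate 1, and the call of *jhamt* was lost without *Or67dGAL4* replicate 3 (adjusted p = 0.0684). *Jheh3*, which hydrolyses the hormone, rose in all 6 fits with 1 library left out, with 123, 97.5 and 106 RPKM in *Or67dGAL4* and 77.5, 74.9 and 72.03 RPKM in *Or47b1* (log2 fold change 0.54 ± 0.08 (SE), adjusted p = 0.000468). *Jhe*, the juvenile hormone esterase, had 5.39, 9.16 and 15.9 RPKM in *Or67dGAL4*, 1.69, 2.56 and 2.95 RPKM in *Or47b1* and 7.90, 16.9 and 6.71 RPKM in *w1118* GH (log2 fold change 2.09 ± 0.71 (SE), adjusted p = 0.0446), a call that was lost without *Or67dGAL4* replicates 2 and 3 and *Or47b1* replicates 1, 2 and 3 in turn (adjusted p = 0.0816 to 0.156). The receptor genes *Met* (log2 fold change 0.03, adjusted p = 0.806) and *gce* (log2 fold change 0.31, adjusted p = 0.133) did not pass the test. Of 14 ecdysone genes none rose and 2 fell by edgeR and by DESeq2 (14.3% called by edgeR, beside 26.8% of all genes). Of the 2, *Hr4* fell in all 6 fits (log2 fold change -0.97, adjusted p = 0.00362) and *MsrA* did not. The number lower was 1 without *Or67dGAL4* replicate 2 or *Or47b1* replicate 1 or 2 or 3, and 2 rose without *Or67dGAL4* replicate 1.

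*CG13659* and related genes, which carry the ecdysteroid kinase-like domain, were called upward more often than downward. Of 37 tested, 15 rose and 1 fell (43.2%, beside 26.8% of all genes), with a median log2 fold change of 0.32. *CG13659* had 42.7, 47.2 and 35.04 RPKM in *Or67dGAL4*, 22.8, 23.5 and 21.2 RPKM in *Or47b1* and 15.5, 16.7 and 15.98 RPKM in *w1118* GH (log2 fold change 0.89 ± 0.10 (SE), adjusted p = 2.53e-05). *CG10553* had 276, 271 and 155 RPKM in *Or67dGAL4* and 125, 105 and 90.3 RPKM in *Or47b1* (log2 fold change 1.14 ± 0.18 (SE), adjusted p = 0.000546). Also abundant, *CG10560* had 263 ± 15.1 RPKM in *Or67dGAL4* and 163 ± 16.9 RPKM in *Or47b1*, and *CG31288* had 165 ± 10.4 RPKM in *Or67dGAL4* and 108 ± 9.85 RPKM in *Or47b1* (SD, n = 3 each, log2 fold changes 0.69 and 0.61). Single libraries mattered for the count: 7 of the 15 rose in all 6 fits with 1 library left out, the number that rose was 8 without *Or67dGAL4* replicate 2, and 4 fell without *Or67dGAL4* replicate 1.

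Cytochrome P450 oxidases act on hormones, lipids, odorants and foreign compounds. The family was taken by symbol after its values were seen. Of 69 tested, 23 rose and 10 fell (47.8% called, beside 26.8% of all genes), 16 and 6 of them in all 6 fits with 1 library left out, and 6 fell without *Or67dGAL4* replicate 2. *Cyp6a17* (chr2R:14873953-14875739 in dm6), known for its part in temperature preference, had 170.3, 159 and 154 RPKM in *Or67dGAL4*, against 0.308, 0.0587 and 0.199 RPKM in *Or47b1* and 79.97, 87.3 and 79.9 RPKM in *w1118* GH (log2 fold change 9.65 ± 0.22 (SE), adjusted p = 7.24e-12). *Cyp9b1*, whose exons overlap *esn*, had 141, 147 and 142 RPKM in *Or67dGAL4*, 16.04, 17.5 and 20.8 RPKM in *Or47b1* and 18.1, 13.6 and 17.8 RPKM in *w1118* GH (log2 fold change 2.98 ± 0.12 (SE), adjusted p = 1.7e-09). *Cyp6a17* was thus scarce in *Or47b1*, whereas *Cyp9b1* in *Or47b1* lay near its level in *w1118* GH. *Cyp6a20*, linked to aggression and social experience in males, fell, with 249.9, 233 and 207 RPKM in *Or67dGAL4*, 655, 674 and 572 RPKM in *Or47b1* and 812, 838 and 821 RPKM in *w1118* GH (log2 fold change -1.46 ± 0.08 (SE), adjusted p = 2.35e-08). *Cyp4d21*, also known as *sxe1* and active in male courtship, had 282, 329 and 211 RPKM in *Or67dGAL4* and 109, 141 and 134 RPKM in *Or47b1* (log2 fold change 1.10 ± 0.21 (SE), adjusted p = 0.00218). Near-identical copies in these clusters may share reads, so single members are less certain.

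Other enzymes of detoxification were divided. Of 34 glutathione S-transferase genes, 6 rose and 7 fell, and of 22 UDP-glycosyltransferase genes, 2 rose and 8 fell (38.2% and 45.5% called, beside 26.8% of all genes). These 7 and 8 decreases became 4 for the transferases of glutathione without replicate 2 or 3 of *Or67dGAL4* or replicate 1 or 2 of *Or47b1*, and 5 for the glycosyltransferases without *Or67dGAL4* replicate 3 or *Or47b1* replicate 1 or 2. *GstE1*, whose exons overlap *GstE10*, had 147, 128 and 127 RPKM in *Or67dGAL4*, 45.99, 36.5 and 43.6 RPKM in *Or47b1* and 339, 215 and 276 RPKM in *w1118* GH (log2 fold change 1.67 ± 0.20 (SE), adjusted p = 4.86e-05). The abundant *GstE4* had 1418, 1047 and 1054 RPKM in *Or67dGAL4* and 2155, 2197 and 2142 RPKM in *Or47b1* (log2 fold change -0.88 ± 0.10 (SE), adjusted p = 3.63e-05). Neighbouring members of the GstE cluster thus moved in opposite directions. *Ugt35C1* had 175, 193 and 119 RPKM in *Or67dGAL4*, 25.8, 22.02 and 20.2 RPKM in *Or47b1* and 140.3, 125 and 143 RPKM in *w1118* GH (log2 fold change 2.84 ± 0.17 (SE), adjusted p = 6.97e-08). The metal-binding metallothioneins moved oppositely, 1 higher and 2 lower of 5 tested (60% called, beside 26.8% of all genes). The number lower was 1 without *Or67dGAL4* replicate 1 or 2 or 3 or *Or47b1* replicate 1 or 2. *MtnA* had 120.0, 101 and 128 RPKM in *Or67dGAL4*, 21.5, 18.7 and 29.00 RPKM in *Or47b1* and 75.3, 78.6 and 82.5 RPKM in *w1118* GH (log2 fold change 2.34 ± 0.14 (SE), adjusted p = 8.97e-08). *MtnB* had 3.17, 3.55 and 2.82 RPKM in *Or67dGAL4*, 33.6, 32.3 and 37.1 RPKM in *Or47b1* and 38.2, 43.4 and 41.9 RPKM in *w1118* GH (log2 fold change -3.41 ± 0.16 (SE), adjusted p = 8.14e-09). Stress and immune lists varied in their share of calls. None of 12 heat shock genes was called by edgeR on the 14 libraries or by DESeq2, with 1 at an unadjusted p under 0.05, but edgeR on the 6 libraries alone called 4 of 11 tested higher and 1 lower. In the fit of 14 libraries, 1 of 18 antimicrobial peptide genes rose and 2 fell (16.7% called, beside 26.8% of all genes). The number higher was 0 without *Or67dGAL4* replicate 3 or *Or47b1* replicate 1 or 2, and the number lower was 0 without *Or67dGAL4* replicate 1 or 2 or *Or47b1* replicate 1 or 3 and 1 without *Or67dGAL4* replicate 3. *TotX* was the 1 of 4 tested Turandot stress genes that rose, with 4.89, 5.80 and 8.02 RPKM in *Or67dGAL4* and 0.295, 0.168 and 0.381 RPKM in *Or47b1* (log2 fold change 4.39 ± 0.82 (SE), adjusted p = 0.00175). Of 8 peptidoglycan recognition genes, 3 were called (37.5%): *PGRP-LF* rose (log2 fold change 1.12, adjusted p = 9.92e-05), *PGRP-LB* fell (log2 fold change -0.54, adjusted p = 0.000299) and 1 more fell with a count that was 1 without *Or67dGAL4* replicate 2 or *Or47b1* replicate 3.

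Both mutants can also be set against *w1118* GH, a group that the 2 contrasts share, so their values are given side by side only. *Or65b* had a log2 fold change of -1.78, adjusted p = 2.46e-07 for *Or67dGAL4* over *w1118* GH and 0.04, adjusted p = 0.832 for *Or47b1* over *w1118* GH. For *Or33b* the values were 5.84, adjusted p = 7.19e-08 for *Or67dGAL4* and -0.03, adjusted p = 0.972 for *Or47b1*, and for *Or85b* -0.06, adjusted p = 0.746 for *Or67dGAL4* and -2.73, adjusted p = 1.71e-08 for *Or47b1*. The *Or65b* and *Or33b* differences thus lay on the side of *Or67dGAL4*, and that of *Or85b* on the side of *Or47b1*. *Or13a* moved both ways, with -1.48, adjusted p = 6.47e-06 for *Or67dGAL4* and 0.67, adjusted p = 0.00216 for *Or47b1*. *ppk25* was above *w1118* GH in both mutants, with 3.73, adjusted p = 8.73e-10 for *Or67dGAL4* and 1.12, adjusted p = 0.000131 for *Or47b1*. *Cyp6a20* was below it in *Or67dGAL4* (-1.84, adjusted p = 3.32e-09), with -0.38, adjusted p = 0.00292 for *Or47b1*, and *to* gave -0.44, adjusted p = 0.0431 for *Or67dGAL4* and -2.23, adjusted p = 4.12e-07 for *Or47b1*.

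The 12 largest increases by the rule for named genes (called, groups apart, at least 1 CPM in the higher group) included several transcripts that were absent from 1 line. *CG40486* (chrX:22958856-22960091 in dm6), a protein-coding gene of unknown role at the base of the X, had 597, 426 and 459 RPKM in *Or67dGAL4*, 2 counts in all in *Or47b1* and 449, 426 and 455 RPKM in *w1118* GH. The ratio of *Or67dGAL4* to *Or47b1* was 7046, with a 95% exact counting interval of 1950.1 to 58184. Beside it on the X, *lncRNA:CR45502* (chrX:22958076-22958827 in dm6) had 136, 118 and 93 counts in *Or67dGAL4* and none in *Or47b1* (at least 35.8-fold higher). *CG30428* on 2R had 198, 291 and 244 counts in *Or67dGAL4*, none in *Or47b1* and 332, 272 and 259 counts in *w1118* GH (at least 75.4-fold higher in *Or67dGAL4* than in *Or47b1*). Also without a count in any *Or47b1* library were *Reepl1* (88, 137 and 86 counts in *Or67dGAL4*, at least 31.6-fold) and *CG3397* (82, 91 and 57 counts in *Or67dGAL4*, at least 23.5-fold). Besides these, *Cyp6a17*, *CheA7a*, *ppk9*, *ppk19* and *Or47b* given above belong to the 12. The last 2 varied between *Or67dGAL4* libraries: *CG14125* had 128, 32.7 and 2.05 RPKM there, against 0.103, 0 and 0 RPKM in *Or47b1*, a ratio of 1399, with a 95% exact counting interval of 251 to 55290.0. It lost its call without *Or47b1* replicates 1, 2 and 3 in turn (adjusted p = 0.0548 to 0.0776). *CG31077* had 1.56, 0.2996 and 2.28 RPKM in *Or67dGAL4* with none in *Or47b1* (at least 12.6-fold) and lost its call without *Or67dGAL4* replicates 1 and 3 and *Or47b1* replicates 1, 2 and 3 in turn (adjusted p = 0.056 to 0.087) and by DESeq2 (adjusted p = 0.206).

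The 12 largest decreases were of transcripts with few or no counts in *Or67dGAL4*. *mthl8* (chr3L:22428-26308 in dm6), a methuselah-like receptor gene near the end of 3L, had no count in *Or67dGAL4*, 12.6, 13.8 and 11.9 RPKM in *Or47b1* and no count in *w1118* GH. It was at least 123-fold lower in *Or67dGAL4* than in *Or47b1*. The related *mthl2*, *mthl3* and *mthl4*, picked after their values were seen, also fell in *Or67dGAL4*, with log2 fold changes of -2.20, -1.93 and -1.91. Of the 10 tested members of the family these 4 fell and 2 rose (60% called, beside 26.8% of all genes), with 1 higher without *Or47b1* replicate 3. *CG43168* (chr3L:6275787-6277035 in dm6), of unknown role, had no count in *Or67dGAL4* and 28.95, 33.7 and 30.00 RPKM in *Or47b1* (at least 94.2-fold lower), and 0, 34 and 0 counts in *w1118* GH. DESeq2 did not call it (adjusted p = 0.0663). The long noncoding RNAs *lncRNA:CR45791* and *lncRNA:CR44057*, which overlap each other on 2L, and *lncRNA:CR45456* had no counts in *Or67dGAL4* and 87, 62 and 52 counts in all in *Or47b1*. DESeq2 did not call *lncRNA:CR44057* (adjusted p = 0.302). *Lmx1a*, a LIM homeobox gene, had 0, 2 and 1 counts in *Or67dGAL4* and 93, 85 and 49 counts in *Or47b1*, so that the ratio of *Or47b1* to *Or67dGAL4* was 71.6, with a 95% exact counting interval of 24.2 to 349.9. *CG31516* had 0, 1 and 1 counts in *Or67dGAL4* and 81, 66 and 47 counts in *Or47b1*, with the same ratio at 91.8, with a 95% exact counting interval of 25.1 to 764. *CG17005* had 1 count in all in *Or67dGAL4* and 38, 34 and 32 counts in *Or47b1*, a ratio of *Or47b1* to *Or67dGAL4* of 98.4, with a 95% exact counting interval of 17.3 to 3925. The pseudogene *CR42490*, whose exons overlap *CG43338*, had 1 count in all in *Or67dGAL4* and 37, 26 and 15 counts in *Or47b1*, a ratio of *Or47b1* to *Or67dGAL4* of 73.8, with a 95% exact counting interval of 12.9 to 2953. *Or67d* and the histone copy *His3:CG33833* (no count in *Or67dGAL4*) also belong to the 12. The last, *CG13675*, had 0, 0 and 0 counts in *Or67dGAL4* and 30, 22 and 20 counts in *Or47b1*. It lost its call without *Or67dGAL4* replicates 1, 2 and 3 and *Or47b1* replicates 1, 2 and 3 in turn (adjusted p = 0.0641 to 0.0937) and by DESeq2 (adjusted p = 0.281).

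Among the 6 most abundant genes that rose, *lncRNA:noe*, a noncoding RNA named for its expression in the olfactory epithelium, had 1853, 1999.9 and 2064 RPKM in *Or67dGAL4*, 736, 831 and 853 RPKM in *Or47b1* and 1327, 1568 and 1673 RPKM in *w1118* GH (log2 fold change 1.29 ± 0.09 (SE), adjusted p = 2.76e-07). *to* (*takeout*), a secreted juvenile hormone-binding family member with roles in feeding and male courtship, had 1507, 1375 and 913 RPKM in *Or67dGAL4*, 388, 384 and 327 RPKM in *Or47b1* and 1605, 1819.6 and 1725 RPKM in *w1118* GH (log2 fold change 1.79 ± 0.16 (SE), adjusted p = 3.17e-06). For *to*, *Or47b1* was the low genotype in all its libraries. *Cyp6w1* (log2 fold change 0.66, adjusted p = 0.000402) and *Obp69a* (log2 fold change 0.38, adjusted p = 0.00869) rose by smaller amounts. *Drsl5* (log2 fold change 0.54, adjusted p = 0.0217), a relative of the antifungal peptide Drosomycin, lost its call without *Or67dGAL4* replicates 1 and 3 and *Or47b1* replicates 1 and 2 in turn (adjusted p = 0.0523 to 0.0595), with a log2 fold change of 0.35 without *Or47b1* replicate 2, and *lush* is given above. The 6 most abundant genes that fell were *OS9*, *Obp28a*, *Obp19a*, *Ugt35B1*, *Acsx2* and *GstE4*. *OS9* (log2 fold change -0.26, adjusted p = 0.0213) lost its call without *Or67dGAL4* replicates 2 and 3 and *Or47b1* replicates 1, 2 and 3 in turn (adjusted p = 0.0501 to 0.0977). *Obp19a* (log2 fold change -0.30, adjusted p = 0.0233) lost its call without *Or67dGAL4* replicates 2 and 3 and *Or47b1* replicates 1, 2 and 3 in turn (adjusted p = 0.053 to 0.0941). The call of *Acsx2* (log2 fold change -0.39, adjusted p = 0.0163) was lost without *Or67dGAL4* replicates 2 and 3 and *Or47b1* replicate 2 in turn (adjusted p = 0.0517 to 0.0698). Other large differences, were picked after the values were seen. *l(2)03659*, a transporter of the ABC family, had 78.5, 77.98 and 79.6 RPKM in *Or67dGAL4*, 1.02, 1.22 and 1.504 RPKM in *Or47b1* and 0.952, 0.850 and 0.734 RPKM in *w1118* GH (log2 fold change 5.99 ± 0.14 (SE), adjusted p = 7.24e-12). *Cpr62Bc*, a cuticle protein gene, had 0.673, 0.666 and 0.727 RPKM in *Or67dGAL4*, 32.1, 35.6 and 32.7 RPKM in *Or47b1* and 0.343, 0.643 and 0.551 RPKM in *w1118* GH (log2 fold change -5.58 ± 0.26 (SE), adjusted p = 7.67e-09). The first was abundant in *Or67dGAL4* alone and the second in *Or47b1* alone. *Idgf2*, a secreted chitinase-like protein, had 100.0, 77.1 and 101 RPKM in *Or67dGAL4* and 4.39, 4.29 and 5.75 RPKM in *Or47b1* (log2 fold change 4.27 ± 0.14 (SE), adjusted p = 2.8e-10). *Drip*, an aquaporin, had 137, 135 and 140.3 RPKM in *Or67dGAL4* and 29.7, 30.9 and 26.8 RPKM in *Or47b1* (log2 fold change 2.24 ± 0.07 (SE), adjusted p = 1.85e-10).

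Among genes of lipid synthesis, which include those of cuticular hydrocarbon pheromones, 3 of 20 rose and 2 fell (25% called, beside 26.8% of all genes). *CG31523*, an elongase gene, had 42.6, 48.9 and 53.7 RPKM in *Or67dGAL4* and 31.5, 30.4 and 27.02 RPKM in *Or47b1* (log2 fold change 0.71 ± 0.11 (SE), adjusted p = 0.000525). The elongase gene *Elo68alpha*, which acts in the synthesis of cis-vaccenyl acetate in males, rose (log2 fold change 2.43, adjusted p = 0.00327), and so did *Baldspot* (log2 fold change 0.47, adjusted p = 0.00325), each in all 6 fits with 1 library left out. The number lower was 1 without *Or67dGAL4* replicate 2 or *Or47b1* replicate 1 or 2 or 3. Of 12 circadian genes, *to* and *dco* rose and *Pdfr* fell (25% called, beside 26.8% of all genes). The number higher was 1 without *Or67dGAL4* replicate 2 or 3 or *Or47b1* replicate 1 or 3 and 5 without *Or67dGAL4* replicate 1, and the number lower was 0 without *Or67dGAL4* replicate 2. Of 8 activity-regulated genes, *CG8910* alone was called (12.5%, beside 26.8% of all genes). It fell (log2 fold change -0.38, adjusted p = 0.0161), a call that was lost without *Or67dGAL4* replicate 3 and *Or47b1* replicate 3 in turn (adjusted p = 0.0578 to 0.0643). The number higher was 1 without *Or47b1* replicate 3 and 3 without *Or67dGAL4* replicate 1. RR cuticular protein genes, 20 tested of 70 by symbol, gave 2 increases and 5 decreases (35% called, beside 26.8% of all genes). The decreases held in all 6 fits while the number higher was 1 without *Or67dGAL4* replicate 1 or 2 or *Or47b1* replicate 2 or 3.

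Genes of digestion stood out and varied between libraries. Of the 9 gut markers, 6 were tested and 3, *Amy-p*, *Amy-d* and *Mal-A1*, were higher in *Or67dGAL4* (50% called, beside 26.8% of all genes). These calls held whichever library was left out. *Amy-p*, an amylase, had 50.5, 7.75 and 31.7 RPKM in *Or67dGAL4*, 0.478, 0.304 and 4.06 RPKM in *Or47b1* and 1.36, 2.89 and 6.69 RPKM in *w1118* GH (log2 fold change 4.29 ± 0.85 (SE), adjusted p = 0.00249). The summed level of the 9 gut markers was 34.6 to 195 CPM in *Or67dGAL4*, 2.90 to 24.6 CPM in *Or47b1* and 20.2 to 41.5 CPM in *w1118* GH. The other 3 tested markers were not called. *alphaTry* had means of 14.2 RPKM in *Or67dGAL4* and 1.68 RPKM in *Or47b1* (log2 fold change 3.13, adjusted p = 0.106). *betaTry* went the other way, with means of 0.706 RPKM in *Or67dGAL4* and 1.13 RPKM in *Or47b1* (log2 fold change -0.63, adjusted p = 0.765). *LManV* had 1.91, 0.123 and 0 RPKM in *Or67dGAL4* and 0 RPKM in each *Or47b1* library (adjusted p = 0.102), so its signal lay mostly in 1 library. The gut protease markers *Jon25Bi*, *Jon65Aii* and *epsilonTry* were at or near 0 in all 6 mutant libraries. Of other gut proteases, *Jon99Cii* had 22.6, 1.53 and 1.09 RPKM in *Or67dGAL4* and 0.309, 0.118 and 6.39 RPKM in *Or47b1* (adjusted p = 0.311). The uncharacterised *CG34220* had 1546, 47.7 and 1542 RPKM in *Or67dGAL4*, against 6.20, 23.8 and 3.94 RPKM in *Or47b1* (log2 fold change 6.52 ± 1.09 (SE), adjusted p = 0.000786). The mucin gene *Muc68D* had 118, 3.36 and 101 RPKM in *Or67dGAL4*, against 0.813, 1.79 and 0.645 RPKM in *Or47b1* (log2 fold change 6.09 ± 1.06 (SE), adjusted p = 0.00104). In both, replicate 2 of *Or67dGAL4* was far below replicates 1 and 3 yet above all *Or47b1* libraries. In all, 13 genes were more than 4-fold lower in that library than in both others of its group, 11 of them called. Among 10 tested trypsin and Jonah protease genes, taken by symbol, 3 rose and none fell (30% called, beside 26.8% of all genes). The number higher was 1 without *Or67dGAL4* replicate 1 or 3 and 7 without *Or47b1* replicate 3. The part of gut or food material in these genes was not tested.

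**Figure D4:**
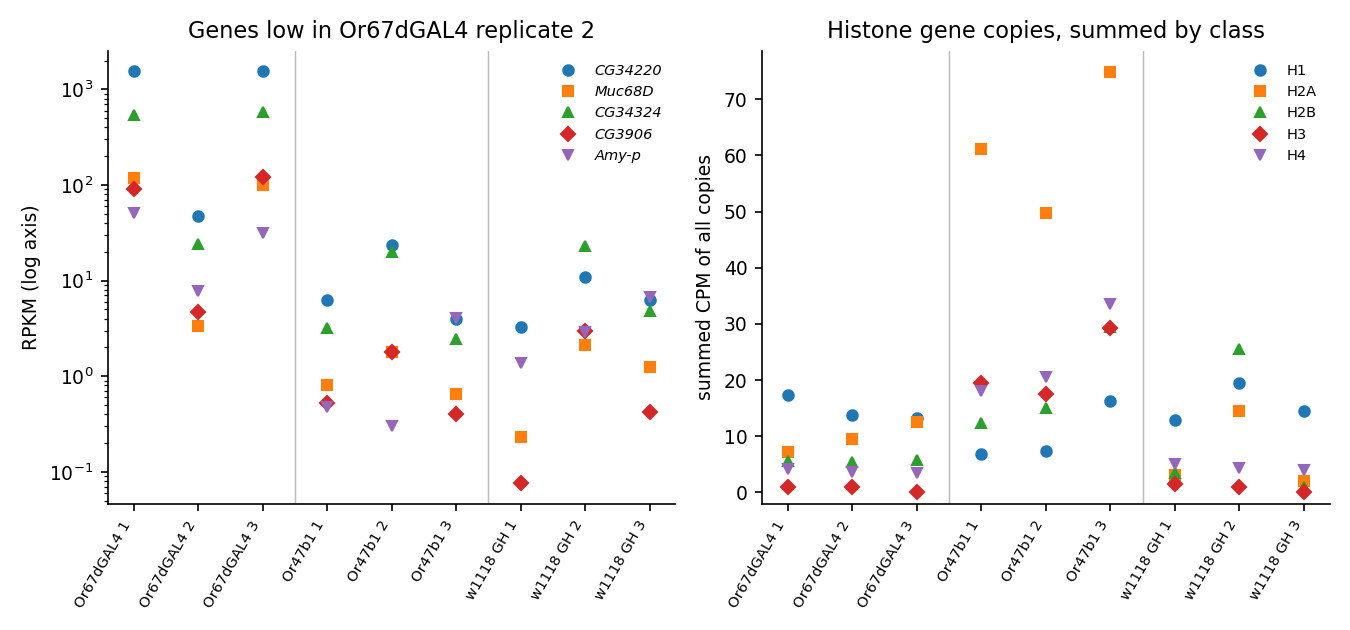
Left, RPKM on a log axis of 5 genes that were low in *Or67dGAL4* replicate 2, in each of the 9 libraries shown (a value of 0 is not drawn). Right, summed CPM of all gene copies of each histone class in the same libraries, where H2A lies at 7.17 to 12.5 CPM in *Or67dGAL4* and at 49.8 to 74.9 CPM in *Or47b1*.

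Few markers of tissues other than gut, mouthparts and legs were called. By edgeR and DESeq2, none of the 8 tested fat body, 8 Johnston's organ, 7 glia or 5 brain markers was called (0, 0, 1 and 1 of them at an unadjusted p under 0.05), though 2 fat body markers fell without *Or67dGAL4* replicate 3, 1 each of glia and brain without *Or47b1* replicate 2, and 1 of Johnston's organ in the edgeR fit with the replicate number as a block. Summed muscle markers were 194 to 502 CPM in *Or67dGAL4* and 114 to 221 CPM in *Or47b1*, with 1 of 12 tested higher (0 without *Or67dGAL4* replicate 3 or *Or47b1* replicate 1 or 2). Eye markers summed to 299 to 396 CPM in *Or67dGAL4* and 427 to 514 CPM in *Or47b1*, with 2 of 9 lower (1 without *Or47b1* replicate 3), and Johnston's organ markers to 222 to 362 CPM in *Or67dGAL4* and 296 to 778 CPM in *Or47b1*. Olfactory neuron markers, 7 genes including *Orco*, summed to 5076 to 5613 CPM in *Or67dGAL4* and 5516 to 5976 CPM in *Or47b1*, and support cell markers to 16665 to 21176 CPM in *Or67dGAL4* and 18912 to 19417 CPM in *Or47b1*, so the labelled tissue carried its markers in every library. Of the other lists, 1 of 5 hemocyte markers fell, and none of the 3 tested testis and accessory gland markers was called by edgeR while 1 fell by DESeq2 (1 at an unadjusted p under 0.05). Single libraries stood apart in some markers. The eye marker *ninaE* had 0.168, 0.575 and 37.2 RPKM in *Or47b1* and 1.03, 0.119 and 12.2 RPKM in *Or67dGAL4*, so replicate 3 was the highest in both mutants. The fat body markers *Yp1* and *Yp3* were likewise highest in replicate 3 of both. In *Or47b1*, the glia marker *alrm* had 4.29, 0.295 and 4.54 RPKM. The part of other tissues in the gene results was not tested. Taste receptor genes used as markers of mouthparts and legs differed: *Gr64f*, a sugar receptor subunit also present in the antenna, had 30.1, 26.9 and 24.8 RPKM in *Or67dGAL4*, 54.3, 55.5 and 50.7 RPKM in *Or47b1* and 31.00, 30.2 and 28.1 RPKM in *w1118* GH (log2 fold change -0.97 ± 0.07 (SE), adjusted p = 9.3e-07). The bitter receptor genes *Gr66a* (log2 fold change 1.00, adjusted p = 0.00101) and *Gr33a* (log2 fold change 1.74, adjusted p = 0.00251) rose at mean levels under 3 RPKM in *Or67dGAL4*.

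Replication-dependent histone genes, taken by symbol after their values were seen, were lower in *Or67dGAL4* in some classes. The copies are nearly identical, so the split of reads among them is uncertain and sums over a class are given with the counts. All 10 tested *His3* copies, all 12 tested *His4* copies and 18 of 20 tested *His2A* copies fell (100%, 100% and 90% called, beside 26.8% of all genes). However, 13 of 23 *His3* copies and 10 of 22 *His4* copies were below the filter. Of the 3 groups shown, only *Or47b1* held enough *His3* counts to pass it, so the share of tested *His3* copies that fell adds nothing to their sum. The *His1* and *His2B* copies gave no call by edgeR or DESeq2 (0 of 19 and 1 of 10 at an unadjusted p under 0.05). H3 copies summed to 0 to 1.02 CPM in *Or67dGAL4*, 17.6 to 29.3 CPM in *Or47b1* and 0 to 1.41 CPM in *w1118* GH. H2A copies summed to 7.17 to 12.5 CPM in *Or67dGAL4*, 49.8 to 74.9 CPM in *Or47b1* and 2.01 to 14.5 CPM in *w1118* GH, and H4 copies to 3.50 to 4.24 CPM in *Or67dGAL4*, 18.1 to 33.5 CPM in *Or47b1* and 4.02 to 4.96 CPM in *w1118* GH. *Or47b1* was thus the group apart in the sums of H3, H2A and H4. H2B copies summed to 5.45 to 5.72 CPM in *Or67dGAL4*, 12.3 to 29.5 CPM in *Or47b1* and 1.00 to 25.6 CPM in *w1118* GH, so there *Or47b1* overlapped *w1118* GH. With 1 library left out the counts of lower copies ran from 9 to 10 for H3, from 7 to 11 for H4 and from 11 to 17 for H2A. The lowest count for H2A was without *Or67dGAL4* replicate 2 and that for H4 without *Or47b1* replicate 2. Cytoplasmic ribosomal protein genes, also taken by symbol, had 24 of 77 lower and 3 higher (35.1% called, beside 26.8% of all genes), with a median log2 fold change of -0.20. The groups did not overlap in 27.3% of these genes, beside 41.2% of all genes tested. The number lower was 56 without *Or67dGAL4* replicate 1, 7 without *Or67dGAL4* replicate 2, 6 without *Or67dGAL4* replicate 3, and 10 and 8 without *Or47b1* replicates 1 and 3, while 1 in place of 3 was higher without *Or67dGAL4* replicate 3 or any *Or47b1* library.

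Calls were spread over all chromosome arms. The share of genes called was 27.5% on 2L, 28.2% on 2R, 29.1% on 3L, 25.3% on 3R and 23.9% on the X, and on the X 148 genes rose and 273 fell. Single libraries weighed on the last split, with 97 genes of the X higher without *Or67dGAL4* replicate 2 and 160 lower without *Or67dGAL4* replicate 3. Within 1 Mb of *Or67d*, 43 of 181 tested genes (23.8%) were called, within 2 Mb 100 of 362 (27.6%), and over the rest of 3L 468 of 1595 (29.3%). Within 1 Mb of *Or47b*, 60 of 202 (29.7%) were called, within 2 Mb 108 of 428 (25.2%), and over the rest of 2R 489 of 1695 (28.8%). Genes called at least 2-fold apart made up 13.4% within 1 Mb of *Or47b* and 9.09% over the rest of 2R, and 9.39% within 1 Mb of *Or67d* and 8.03% over the rest of 3L. Within 0.5 Mb of *Or47b*, a window added after the values were seen, 19 of 99 tested genes (19.2%) were. The nearest tested gene to *Or47b*, *nompA*, a gene of mechanosensory organs 1.03 kb away, had means of 6.59 RPKM in *Or67dGAL4*, 2.71 RPKM in *Or47b1* and 5.62 RPKM in *w1118* GH (log2 fold change 1.28, adjusted p = 0.000139). Its exons overlap *CG43114*. The next 3 tested genes, *sha*, *CG43114* and *CG7745*, at 3.00 to 9.88 kb, were not called (log2 fold changes of 0.003, 0.46 and 0.003). *CG7741*, 14.1 kb away, whose exons overlap *Fpps* and *Obp47b*, rose (log2 fold change 1.33, adjusted p = 5.18e-06). Of the 10 nearest tested genes, 4 rose and 6 were not called. Nearest to *Or67d* was *can*, a gene of spermatocytes, 6.09 kb away, which rose with 39 against 3 counts in all (a ratio of 13.7, with a 95% exact counting interval of 4.37 to 69.5, adjusted p = 0.00784). Next was *lncRNA:CR46003* at 12.3 kb, which rose with means of 0.314 RPKM in *Or67dGAL4* and 0.0147 RPKM in *Or47b1* (adjusted p = 4.35e-05), and the 8 tested genes after it were not called.

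On the fourth chromosome every call was in 1 direction. Of 93 tested genes on it, 29 (31.2%) rose and none fell, with a median log2 fold change of 0.35, and 14 (15.1%) had groups that did not overlap, all of them higher in *Or67dGAL4*. Over all tested genes, the groups did not overlap in 41.2%, and in 19.4% they were higher in *Or67dGAL4*. The libraries of *Or67dGAL4* were themselves unequal. The median over these genes of log2 CPM, relative to the mean of the 6 libraries, was -0.21, 0.38 and 0.30 in *Or67dGAL4* and -0.17, -0.02 and -0.29 in *Or47b1*, so *Or67dGAL4* replicate 1 lay with the *Or47b1* libraries. On the other arms no library was further than 0.04 from 0. The count of 29 rested on single libraries: it was 46 without *Or67dGAL4* replicate 1, 6 without *Or67dGAL4* replicate 2 or 3, 5 without *Or47b1* replicate 1 or 3, and 29 without *Or47b1* replicate 2, where 1 gene fell. Only 4 of the 29 were called in all 6 of those fits.

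**Figure D5:**
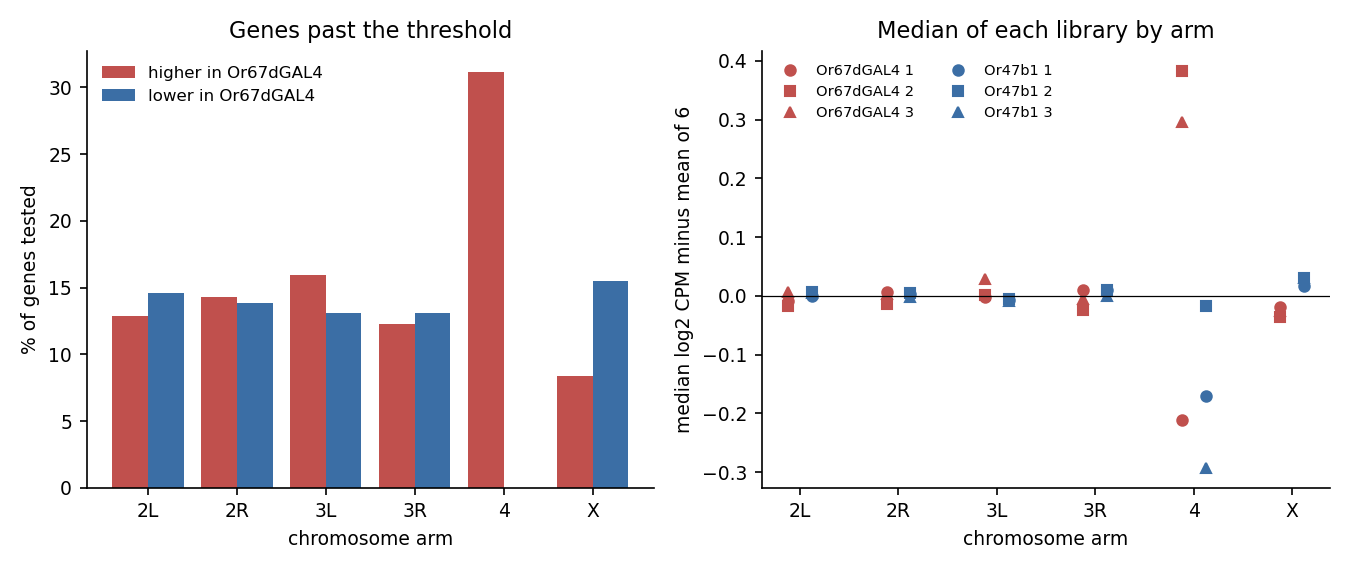
Left, percent of tested genes on each chromosome arm that were higher (red) or lower (blue) in *Or67dGAL4*, where the fourth chromosome has 31.2% higher and none lower. Right, median log2 CPM of each library minus the mean of the 6 libraries, where *Or67dGAL4* replicate 1 lies at -0.21 on the fourth chromosome and replicates 2 and 3 at 0.38 and 0.30.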

How the data were processed

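RNA-seq of male antennae (the third segment) was analysed from the gene counts in 15 libraries. Per the labels and methods, the authors trimmed reads with FASTP, aligned them to dm6 with MapSplice2, removed duplicates and poorly mapped pairs, and deposited raw featureCounts counts per gene (SAMtools is also named in the processing notes), from a library kit that did not mark strand. The annotation release and tool versions are not given in the sources used here. Without strand, reads of overlapping genes cannot be told apart, and near-identical copies may share reads. Two-sided tests used edgeR 4.0.16 (TMM, filterByExpr, quasi-likelihood, Benjamini-Hochberg) in R 4.3.3 on 14 libraries in 5 groups, leaving out *fruLexA/fru4-40* replicate 1, which the labels mark with a QC warning (the methods count 2 such libraries), with DESeq2 1.42.0 as an alternative. Python 3.11.15 made the tables and figures. On simulated counts for 10358 genes in this comparison, 30 of 50 genes changed 1.5-fold, 46 of 50 changed 2-fold, 50 of 50 changed 4-fold and 49 of 50 changed 8-fold were recovered, and 4 of 10158 unchanged genes were called. The changed genes were drawn from those with an expected count above 50 in a library of median size, and no library was made to stand apart. The simulation therefore does not cover scarce changed genes or outlying libraries. Intervals and floors of 3 counts cover counting error only. Named genes were the 12 largest increases, the 12 largest decreases and the 6 most abundant of each direction among called genes with groups apart and at least 1 CPM, plus members of the lists. Of 690 list symbols, 682 matched. The comparison and the lists were chosen with earlier results of these data known. Gene families by symbol, the 0.5 Mb window and other genes named as such were picked after their values were seen.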

Additional observations from a re-analysis of the deposited data

How the results depend on the processing

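With other settings the number of called genes, 2778 in the reported fit, ranged from 587 to 3098. It was 1401 (667 higher and 734 lower in *Or67dGAL4*) with all 15 libraries in the fit, 1535 (757 higher and 778 lower) at an adjusted p of 0.01, and 587 (312 higher and 275 lower) when edgeR tested against a fold of 1.5. The other settings stayed within 1.5 times the reported count: 2750 with RLE size factors, 2680 with total counts, 2713 with DESeq2, 2378 with the 6 mutant libraries only, 2278 with no filter and 2402 with at least 10 counts in each of the 6. Leaving out 1 library gave 1968 to 3098 called genes, 951 to 1535 higher and 928 to 1563 lower. Of 222 named or listed genes followed over the settings, 71 lost a call in at least 1 of those fits. The 222 do not include every tested member of the lists. A fit with the replicate number as a block called 2880 genes, 2667 of them shared. Deviations from the group mean correlated at 0.01, 0.11 and 0.30 between same-numbered libraries of the mutants, beside -0.21 to 0.13 between libraries with unlike numbers. The largest value, 0.30, was that of replicate 3 with replicate 3. The reported fit did not pair libraries by number, and whether same-numbered libraries shared a source of variation was not tested. Among those 222 genes, the only change of sign was that of *fru*, uncalled throughout. Its log2 fold change was 0.07 (adjusted p = 0.749), and with 1 library left out it ran between -0.0211 (without *Or47b1* replicate 1, adjusted p = 0.936) and 0.168 (without *Or67dGAL4* replicate 1), with -0.00297 (adjusted p = 0.993) without *Or67dGAL4* replicate 2. The causes were not tested. With 3 libraries a group, a missed call does not show that levels were alike, and each receptor loss was studied in 1 line, so receptor loss and line background cannot be told apart. Genes under the filter on low counts were not tested at this depth.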
